A study of Homo sapiens with 108 samples.

Results

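The genes described here encode the collagens, the laminin chains and the integrin subunits. Members were the array probes with exactly 1 gene symbol in the platform annotation that begins with COL, LAM or ITG in the form used for these chains, and with at most 10% missing values over the arrays. By this rule 89 of the 54359 probes were members, and they stood for 65 genes, of which 31 were collagen genes, 8 laminin genes and 22 integrin genes. The other 4 genes match by name only and encode no subunit: ITGB1BP1 and ITGB1BP2, which bind integrin beta 1, the centromere protein ITGB3BP and the secreted integrin-like protein ITGBL1. After a filter on low levels, 71 member probes for 57 genes could be tested.

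Each sample was RNA of 1 of 6 human melanoma cell lines (MeWo, C32TG, 92-1, HMV-II, HMV-I or Colo679) hybridised to a single-colour CodeLink whole-genome array. Cells received 2 Gy of carbon ions or 2 Gy of X-rays and were sampled at 1 h or 3 h. Each beam had its own 0Gy set of unirradiated cells in each line, called the carbon-ion set and the X-ray set below, so that there were 36 groups of 3 arrays, 108 arrays in all. 92-1 derives from a uveal melanoma, and C32TG is a derivative of the amelanotic line C32. Nothing in the labels tells separate cultures from repeat hybridisations among the 3 arrays, so p-values within a line measure only the spread between arrays.

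As background, the basement membrane is a sheet of type IV collagen and laminin that melanocytic cells rest on and that invading melanoma cells must cross. Type IV collagen is a trimer of alpha chains, most often made of the COL4A1 and COL4A2 products, whose genes lie head to head. Laminins are trimers of an alpha, a beta and a gamma chain, and the alpha chain sets which receptors bind. Integrins are alpha-beta pairs at the cell surface that bind collagens (ITGA1, ITGA2, ITGA10, ITGA11), laminins (ITGA3, ITGA6, ITGA7) or other ligands such as fibronectin and vitronectin (ITGA4, ITGA5, ITGAV).

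The pair of genes with the widest and the third-widest differences between lines among the collagens, COL4A2 and COL4A1, shares 1 start region. In RefSeq (GRCh38.p14) COL4A1 starts at position 110307157 of chromosome 13 on the minus strand and COL4A2 at 110307284 on the plus strand, 127 bases away. The stretch between both starts (chr13:110307158-110307283, plus strand, upstream of both genes) is shown because 1 stretch serves both genes. That upstream of COL4A6 (chrX:108439459-108439708, minus strand), a type IV gene high in 1 line, is shown beside it. Lying head to head is not particular to COL4A1 and COL4A2. COL4A6 starts 380 bases from COL4A5, and COL4A4 starts 419 bases from COL4A3. The COL4A6 stretch lies between the starts of COL4A6 and COL4A5. Capitals mark, on either strand, the CCAAT box (CCAAT), the core of the GC box (GGGCGG) and the TATA box (TATAAA).
COL4A1-COL4A2: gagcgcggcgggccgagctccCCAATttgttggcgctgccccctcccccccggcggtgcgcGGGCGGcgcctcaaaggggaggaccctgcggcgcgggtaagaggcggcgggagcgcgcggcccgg
COL4A6: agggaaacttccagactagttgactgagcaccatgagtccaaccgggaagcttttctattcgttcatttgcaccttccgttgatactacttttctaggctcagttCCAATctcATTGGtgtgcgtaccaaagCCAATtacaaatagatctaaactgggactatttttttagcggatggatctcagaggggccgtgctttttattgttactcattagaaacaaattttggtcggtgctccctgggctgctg
The 126 bases between COL4A1 and COL4A2 were 80.2% G or C, against a median of 60.3% over windows of that length from the 35116 RefSeq promoter entries. They held 1 CCAAT (present in 21.1% of such windows), 1 GGGCGG (34.6%) and no TATAAA (5.87%). The 250 bases upstream of COL4A6 were 44.0% G or C, against a median of 58%, and held 3 CCAAT matches (present in 32% of windows), no GGGCGG (42.6%) and no TATAAA (10.7%). These are matches of letters, not measured binding sites. Of the 65 member genes, 47 had a promoter entry.

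Values are log2 of the deposited intensity after quantile normalization between arrays. The deposited medians of the arrays ran from 1.02 to 1.32, and 1000 to 8034 spots per array were missing. The table carries no background flags, so whether a value near or below 0 on this scale lay above background is unknown, and the number of arrays limits the precision. Of 18 tested targets of p53, a check that irradiation acted, 11 rose at 3 h after carbon ions (6.27% of all probes higher). At 3 h after X-rays 9 rose (2.66%). At 1 h 6 rose after carbon ions (4.61%) and 1 after X-rays (0.340%), and 0 fell in any of these comparisons. The check at 1 h after X-rays thus rests on 1 gene, PLK2. Markers of the labelled cell type were low in HMV-I, where the summed intensity of 9 melanocyte markers was 24.4 to 29.9 over its 6 unirradiated arrays, and intermediate in C32TG (439 to 594), against 1171 to 2008 in the other lines. MLANA, a melanosome protein, averaged -1.29 in HMV-I and 0.53 in C32TG, and 8.79 to 9.02 elsewhere. PMEL, TYRP1, SLC45A2, OCA2 and GPR143 were also lower in C32TG than in those other lines. C32TG was not low for every marker: TYR averaged 8.37 there and -0.60 in HMV-I, against 7.09 to 8.93 elsewhere. MITF averaged 6.96 in C32TG and 4.20 in HMV-I, against 6.88 to 7.72 elsewhere. The summed intensity of 7 epithelial markers was 20.2 to 25.2 in HMV-I against 2.92 to 5.71 in the other lines, carried by EPCAM (3.72) and SFN (2.85), while the keratins KRT5 (-2.99), KRT14 (-0.73) and KRT1 (-1.49) were lower there than in any other line with a value. That of 8 endothelial markers was 46.1 to 67.5 in 92-1 against 7.41 to 22.9 elsewhere, carried by EMCN (5.47). KDR (-2.39) and TEK (-1.86) were lower in 92-1 than in any other line. PECAM1 was 3.11 to 3.41 over all lines, and ESAM was highest in HMV-I (2.71). The sum of 9 fibroblast markers was 45.1 to 82.0 in Colo679, HMV-II and MeWo and 11.4 to 22.9 in the other lines. Of these, LUM reached 5.73 in MeWo, 4.69 in HMV-II and 3.41 in Colo679. FAP reached 5.33 in Colo679, 4.16 in HMV-II and 3.72 in C32TG, and DCN 2.41 in MeWo and 2.33 in Colo679. TWIST2 ran the other way, with 3.38 in HMV-I and 2.88 in 92-1, against -0.48 in Colo679 and -0.20 in MeWo. It was 1.40 in HMV-II and 1.35 in C32TG. PDGFRA and PDGFRB stayed between -0.24 and 0.24 in every line. The sum of 7 leukocyte markers was 26.0 to 45.8 over all lines, with CD79A at 3.26 to 3.89, LCP2 at 2.85 to 3.84, CORO1A at 2.61 to 3.87 and PTPRC at -1.23 to -0.83. The part of these marker differences in the results below was not tested.

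In unirradiated cells the 6 lines differed in most of the matrix and integrin genes. The level differed between lines for 45 of the 57 tested genes (limma's moderated F test, adjusted p under 0.05 over all probes), beside a background of 59.5% of all probes. These were 19 of 24 collagen genes, all 7 laminin genes, 15 of 22 integrin genes and the 4 genes that encode no subunit. The median range between the highest and the lowest line was 1.80 on the log2 scale, against 0.92 over all probes, and 26 genes had a range above 2. Since the filter is on the mean level, a gene high in 1 or a few lines only can pass through those lines. These shares therefore describe the tested genes and not all members. C32TG had the largest number of genes at their highest (15 of the 45) and HMV-I the largest number at their lowest (17). Against the mean of the other lines, 29 genes differed in C32TG (all probes 30.7%), 23 of them higher and 6 lower. In HMV-I 38 differed (33.4%), 14 higher and 24 lower, and in 92-1 32 (29.5%), 10 higher and 22 lower. MeWo had 28 (29.3%), 17 higher and 11 lower, Colo679 30 (19.4%), 13 higher and 17 lower, and HMV-II 22 (25.2%), 7 higher and 15 lower. Shares of all probes by direction, by highest or lowest line and by range above 2 are not given here. Those splits and counts therefore describe the tested genes only and do not set them apart from other probes.

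**Figure D1:**
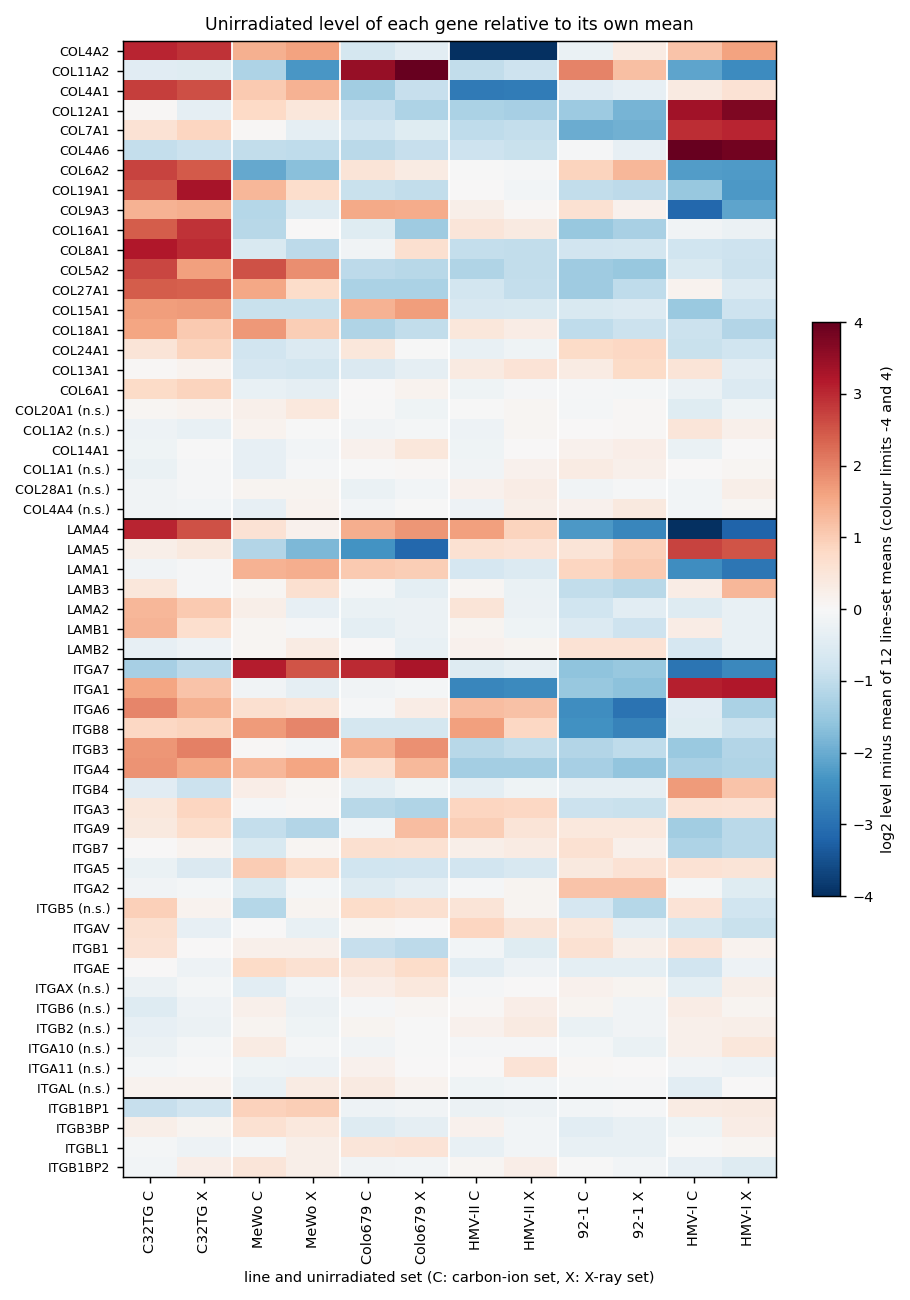
Unirradiated level of the 57 tested genes (vertical axis, grouped as collagens, laminins, integrins and genes that encode no subunit) in the 12 line and set means (horizontal axis), as log2 level minus the gene's own mean over those 12 values, with red above and blue below. Both sets of a line mostly share a colour, C32TG has the most genes at their highest and HMV-I the most at their lowest. The mark n.s. stands for genes whose lines did not pass the F test.

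Type IV collagen, the network of the basement membrane, gave the widest range. COL4A2 had a median of 6.95 over the 6 unirradiated arrays of C32TG (lowest 6.82, highest 7.11), 5.48 in MeWo (5.38 to 5.76), 5.40 in HMV-I (5.07 to 5.64), 4.0 in 92-1 (3.64 to 4.42), 3.50 in Colo679 (3.16 to 3.63) and -1.31 in HMV-II, where 4 arrays had a value (-1.33 to -1.24). C32TG stood above and HMV-II below every array of the other lines, and MeWo and HMV-I overlapped. The line means ranged over 8.27 on the log2 scale (adjusted p = 4.26e-08). No fold between lines is given, here or for other genes whose lowest line lies near or below 0, since the background there is unknown. COL4A1, its usual partner chain, had medians of 6.08 in C32TG (5.86 to 6.28), 4.61 in MeWo (4.38 to 4.85), 3.87 in HMV-I (3.59 to 4.03), 3.06 in 92-1 (2.73 to 3.28), 2.20 in Colo679 (1.97 to 2.59) and 0.56 in HMV-II (0.43 to 0.86, 5 arrays). No line overlapped the next. The lines stood in the same order for both genes (Pearson r = 0.94 and Spearman rho = 1.00 over 6 lines, a description, since the points share their arrays). The pattern rests on the brighter probe of each gene. A second COL4A2 probe ranged over only 1.30 and did not follow it (r = -0.07), while a second COL4A1 probe did (r = 0.99) over a range of 0.39.

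COL4A6, a chain of epithelial and smooth muscle basement membranes, was high in HMV-I alone. Its median there was 4.0 (3.87 to 4.11), and all arrays of the other lines lay between -1.21 and 0.08. The other lines averaged -0.73, below the minimum mean level of -0.41, so the gene was tested only because of HMV-I. The range of the line means was 4.95 (adjusted p = 4.66e-08), and a second probe ranged over 5.76 in the same way (r = 0.997 over 6 lines). COL4A4, a chain of the kidney's filter, did not pass the test, with line means from 4.93 to 5.34 (adjusted p = 0.283). COL4A3 lay below the level filter, and the COL4A5 probe had 14.8% missing values, over the limit of the rule.

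**Figure D2:**
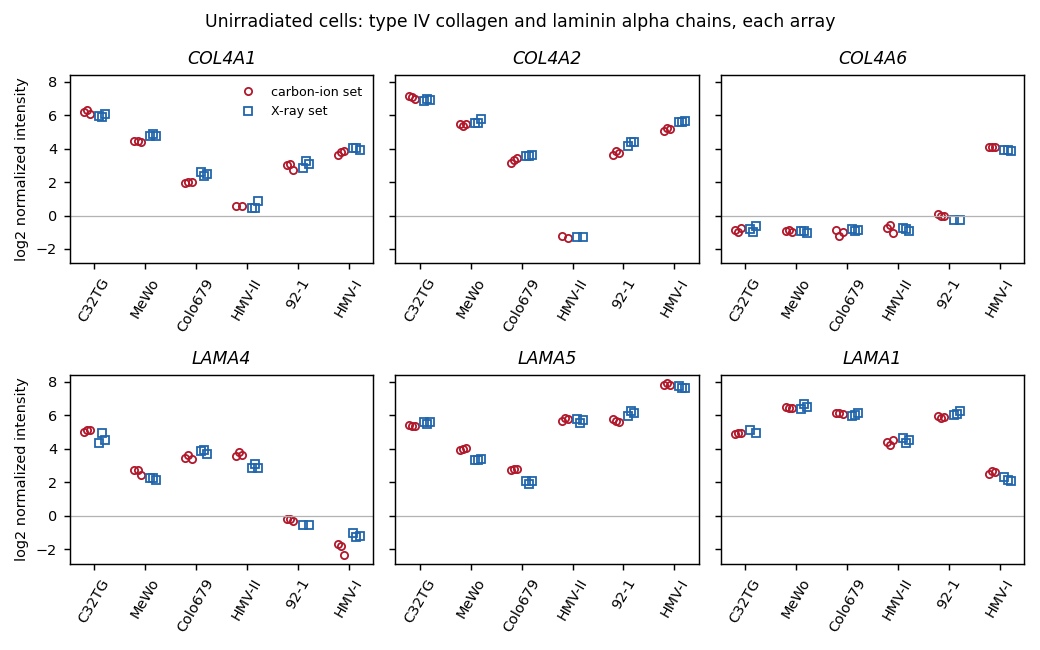
Log2 normalized intensity (vertical axis) on each unirradiated array of the 6 lines (horizontal axis) for COL4A1, COL4A2, COL4A6, LAMA4, LAMA5 and LAMA1; circles are the carbon-ion set and squares the X-ray set, 3 arrays each. COL4A1 and COL4A2 step down through the lines together to HMV-II, and COL4A6 and LAMA5 are highest in HMV-I.

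Type VI collagen forms beaded filaments around cells. COL6A2 had a median of 3.49 in C32TG (3.32 to 3.83), 2.08 in 92-1, 1.42 in Colo679, 0.98 in HMV-II, -0.87 in MeWo and -1.26 in HMV-I (-1.57 to -0.90). C32TG was above all other arrays, and the line means ranged over 4.84 (adjusted p = 4.11e-07). COL6A1 was also highest in C32TG, at a median of 0.61 (0.49 to 0.85), with a narrower range of 1.22 (adjusted p = 5.23e-04), and fell out of the called genes when C32TG was left out. Over the lines COL6A1 and COL6A2 had r = 0.90. The COL6A3 probe had 38.0% missing values and was no member.

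Several other collagens marked single lines. COL11A2, a minor fibrillar collagen, had a median of 6.23 in Colo679 (5.71 to 6.70) and 3.93 in 92-1 (3.36 to 4.33), and between -0.01 and 1.85 in the other lines, a range of 6.23 (adjusted p = 7.18e-06). HMV-I was highest for COL7A1, which forms the anchoring fibrils below the epidermis, with a median of 5.29 (5.17 to 5.41) against 3.01 in C32TG and 0.36 in 92-1, the lowest line (range 4.95, adjusted p = 5.00e-07). HMV-I was also highest for COL12A1, a collagen that decorates fibrils, at 3.95 (3.72 to 4.20), where MeWo was next at 1.03 and 92-1 lowest at -1.20 (range 5.21). None of these top lines overlapped the next line. C32TG was highest, without overlap, for COL8A1, a short-chain collagen (3.79, next Colo679 at 0.88), COL16A1 and COL19A1, which associate with fibrils and basement membranes (3.12 and 3.15), and COL27A1, a fibrillar collagen of cartilage (6.76, with 5.49 in MeWo and 3.09 in Colo679, the lowest). COL5A2, a chain of the fibril-initiating type V collagen, was high in MeWo (2.30) and C32TG (2.33) and between -1.27 and -0.56 elsewhere. Its means in those other lines, -1.36 to -0.64, lay below the minimum mean level of -0.41. COL5A2 was thus tested only because of MeWo and C32TG. COL9A3, of cartilage fibril surfaces, reached 9.26 in Colo679 and 9.21 in C32TG, near the highest deposited intensity on the array (10.27 on the log2 scale), which leaves little room above; the lowest line was HMV-I at 5.14. The basement membrane collagen COL15A1 was high in C32TG (3.47) and Colo679 (3.29) and at most 1.20 elsewhere, and COL18A1 was high in MeWo (2.77) and C32TG (2.69).

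The chains of type I collagen, the main collagen of skin and bone, did not pass the test between lines. COL1A1 had line means of 1.73 to 2.17 (adjusted p = 0.248) and COL1A2 of -0.39 to 0.20 (adjusted p = 0.081). COL4A4, COL20A1 and COL28A1 were the other collagen genes that did not pass. Of the 31 collagen genes, COL2A1, COL4A3, COL5A3, COL9A1, COL9A2, COL10A1 and COL11A1 had no probe above the level filter.

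Among the laminins LAMA4, LAMA5 and LAMA1 had the widest ranges, and each was highest in a different line. LAMA4, the alpha chain of vessel and mesenchymal basement membranes, had medians of 4.97 in C32TG (4.35 to 5.15), 3.66 in Colo679 (3.39 to 3.90), 3.33 in HMV-II (2.84 to 3.84), 2.36 in MeWo (2.16 to 2.73), -0.31 in 92-1 (-0.58 to -0.19) and -1.47 in HMV-I (-2.35 to -1.06). C32TG lay above and HMV-I below all other arrays, and the range was 6.41 (adjusted p = 1.43e-06). LAMA5, the broadly made epithelial alpha chain, was instead highest in HMV-I, with a median of 7.81 (7.62 to 7.91). It was 5.86 in 92-1, 5.76 in HMV-II, 5.45 in C32TG, 3.67 in MeWo and 2.41 in Colo679 (1.93 to 2.82). Colo679 did not overlap any other line, and the range was 5.36 (adjusted p = 2.92e-06). LAMA1, best known from embryonic basement membrane, had a median of 6.47 in MeWo (6.37 to 6.71), 6.11 in Colo679, 5.99 in 92-1, 4.93 in C32TG, 4.48 in HMV-II and 2.41 in HMV-I (2.07 to 2.66), with a range of 4.12 (adjusted p = 6.80e-07). LAMA1 and LAMA5 ran in opposite order over the 6 lines (r = -0.81, rho = -0.77).

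The remaining laminin chains varied less. LAMB1, the common beta chain, was highest in C32TG (median 6.63, 5.96 to 6.98) and lowest in 92-1 (4.90, 4.41 to 5.16), with a range of 1.70 (adjusted p = 0.00137). LAMA2, the muscle alpha chain, was highest in C32TG at 0.75 (0.43 to 0.93), where 1 array of HMV-II reached 0.91, and had a range of 1.80. LAMB3, of the epithelial laminin, ranged over 1.88 from HMV-I (1.45) to 92-1 (-0.38). LAMB2 ranged over 1.07, with 92-1 highest at 5.20, but its other tested probes put MeWo or Colo679 highest (r = 0.36 and -0.73 with the first), so its order of lines was uncertain. The calls of LAMB1 and LAMA2 were lost without C32TG, and those of LAMB2 and LAMB3 without 92-1. LAMB4 lay below the level filter.

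The integrin subunits that bind collagen and laminin followed the lines in separate patterns. ITGA1, of the collagen receptor α1β1, had a median of 4.68 in HMV-I (4.52 to 4.84), 2.99 in C32TG (2.65 to 3.17, 5 arrays), 1.47 in Colo679, 1.29 in MeWo, 0.01 in 92-1 and -1.05 in HMV-II (-1.32 to -0.83). HMV-I was above and HMV-II below all other arrays (range 5.73, adjusted p = 1.02e-07). ITGA7, a laminin receptor known from muscle, split the lines: Colo679 had 5.34 (5.07 to 5.48) and MeWo 5.0 (4.62 to 5.40), while HMV-II had 1.78, C32TG 1.00, 92-1 0.65 and HMV-I -0.53 (range 5.86, adjusted p = 2.25e-07). ITGA6, the alpha chain of the main laminin receptors, had medians of 6.97 in C32TG (6.57 to 7.33), 6.48 in HMV-II, 5.86 in MeWo, 5.37 in Colo679, 4.37 in HMV-I and 2.55 in 92-1 (2.08 to 2.81). 92-1 lay below every other array (range 4.43, adjusted p = 4.18e-06). ITGA3, another laminin receptor chain, ranged over 2.00, with HMV-II highest at 6.39 and Colo679 lowest at 4.39. ITGA2, of the collagen receptor α2β1, was highest in 92-1 (6.20, 6.13 to 6.32) and between 4.40 and 5.18 on the arrays of the other lines. A second ITGA2 probe put C32TG highest (r = -0.21), and the call of ITGA2 was lost without 92-1. The collagen receptor chains ITGA10 and ITGA11 did not pass the test.

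**Figure D3:**
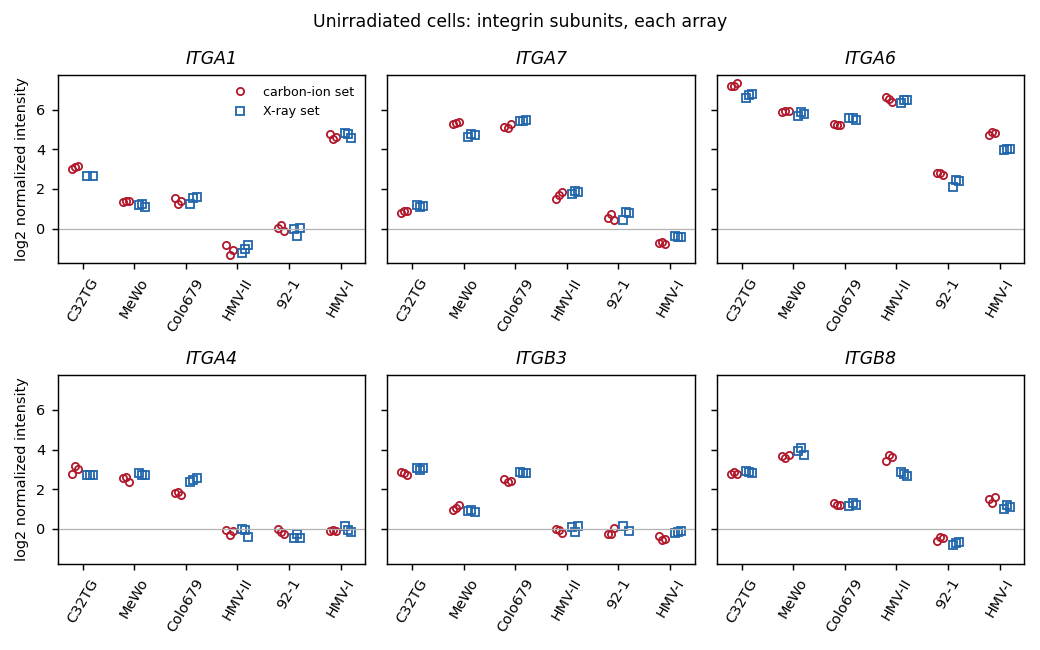
Log2 normalized intensity (vertical axis) on each unirradiated array of the 6 lines (horizontal axis) for ITGA1, ITGA7, ITGA6, ITGA4, ITGB3 and ITGB8; circles are the carbon-ion set and squares the X-ray set. ITGA1 is highest in HMV-I, ITGA7 in Colo679 and MeWo, and ITGA4 stays at 1.72 or above in C32TG, MeWo and Colo679 and at 0.14 or below in the other lines.

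ITGB3, the beta chain of the vitronectin receptor and a known marker of melanoma progression, had medians of 2.93 in C32TG (2.73 to 3.07), 2.66 in Colo679 (2.37 to 2.88) and 0.95 in MeWo (0.87 to 1.21). HMV-II, 92-1 and HMV-I had medians of -0.03, -0.13 and -0.29. The range was 3.24 (adjusted p = 6.37e-07). ITGA4, of the receptor for VCAM1 and fibronectin, was high in C32TG (2.75, 2.69 to 3.17), MeWo (2.66, 2.38 to 2.82) and Colo679 (2.13, 1.72 to 2.59). No array of the other lines was above 0.14 for ITGA4 (range 3.11, adjusted p = 3.64e-06). In MeWo ITGB3 was not high, with a mean of 0.99 against 1.03 over the other lines. ITGA4 and ITGB3 had r = 0.86 over the 6 lines, a description, since the points share their arrays. ITGAV, the partner of ITGB3, did not run with it (r = 0.20): it was highest in HMV-II (3.81) and lowest in HMV-I (2.45), with a range of 1.47, and its call was lost without HMV-I or without HMV-II. ITGB8, another partner of ITGAV, had medians of 3.72 in MeWo (3.59 to 4.08), 3.16 in HMV-II and 2.82 in C32TG, then 1.23 in HMV-I, 1.22 in Colo679 and -0.62 in 92-1 (-0.82 to -0.42). Its range was 4.39 (adjusted p = 3.38e-06). ITGB5, a further partner of ITGAV, did not pass the test (range 1.58, adjusted p = 0.072). The unirradiated sets of 1 line differed by up to 1.34 for ITGB5.

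ITGB1, the beta chain shared by most of these receptors, had medians of 7.03 to 7.21 in 92-1, HMV-I, C32TG and MeWo, 6.50 in HMV-II and 5.84 in Colo679 (5.56 to 5.95), which lay below all other arrays (range 1.40, adjusted p = 3.75e-04). ITGA5, of the fibronectin receptor, ranged over 1.65 from MeWo (3.07) to Colo679 (1.45). ITGB4, the beta chain of hemidesmosomes, was highest in HMV-I (3.20, 2.89 to 3.53), with 1.89 in MeWo as the next, and its call was lost without HMV-I. ITGAE, known from lymphocytes, was among the called genes, with 7.38 in MeWo and 7.28 in Colo679 against 5.98 to 6.63 in the other lines. ITGA9 and ITGB7 also differed, with ranges of 2.00 and 1.79. Of the leukocyte subunits, ITGAL, ITGAX and ITGB2 did not pass, nor did the epithelial ITGB6. Of 32 genes named for the unirradiated cells, 26 had the same highest line and 24 the same lowest line in both sets.

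Against these differences between lines, the changes after 2 Gy were small. At 1 h after carbon ions 5 of the 57 genes passed (limma, 1 value per line over 6 lines), 1 higher and 4 lower, beside a background of 10.4% of all probes (4.61% higher, 5.82% lower), and 9 had an unadjusted p under 0.05. The median change was 0.02, against 0.00 over all probes. COL27A1 fell in 6 of 6 lines, by a mean of 0.27 ± 0.15 (SD, n = 6, 1.21-fold lower, adjusted p = 0.009). In C32TG its 3 unirradiated arrays of the carbon-ion set had 6.84, 6.74 and 6.77, the 1 h arrays 6.26, 6.18 and 6.45, and the 3 h arrays 6.40, 6.28 and 6.13. The irradiated arrays of that line lay below every unirradiated one. ITGAX, a leukocyte integrin chain, fell by 0.18 ± 0.07 in 6 of 6 lines (adjusted p = 0.030), and ITGB1BP2, also called melusin, a muscle protein that binds integrin beta 1, fell by 0.25 ± 0.18 in 5 of 6 (adjusted p = 0.034). ITGB6, of the epithelial receptor for latent TGF-beta, rose by 0.19 ± 0.09 in 6 of 6 lines (adjusted p = 0.034), at levels near 0 in every line (means of -0.64 to 0.17 before and -0.34 to 0.40 after). COL16A1 fell by 0.38 ± 0.34 (adjusted p = 0.039), with changes from -0.03 in 92-1 to -0.97 in Colo679.

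The size of the COL16A1 fall after carbon ions rested in part on 1 array. The unirradiated carbon-ion arrays of Colo679 had 2.04, -0.89 and -1.12, and 1 high array made the fall of that line. With the median of the 3 arrays of each group in place of the mean, a setting chosen after seeing this array, COL16A1 changed by -0.19 at 1 h (adjusted p = 0.076) and by -0.26 at 3 h (adjusted p = 0.092), and without Colo679 by -0.26 (adjusted p = 0.063) and -0.29 (adjusted p = 0.084). Both calls of COL16A1 after carbon ions were also lost without HMV-I, HMV-II or MeWo and without replicate 1 or 3. Arrays centred on the median, values as deposited and no filter on level lost both COL16A1 calls too. The call of ITGB6 at 1 h was lost when any 1 of the 6 lines or any 1 replicate number was left out, with group medians, with quantile normalization over measured spots and with the median of all measured spots. Those of ITGAX and ITGB1BP2 at 1 h were each lost without 92-1, Colo679, HMV-I or MeWo. The ITGAX call was also lost without any 1 replicate number, and the ITGB1BP2 call without replicate 2. The number of genes called at 1 h after carbon ions went from 5 to 3 with group medians. It went to 1 without Colo679, HMV-I or MeWo, to 2 without 92-1, and to 3 without HMV-II. COL27A1 was called in all of these settings.

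At 3 h after carbon ions 6 of 57 genes passed, 1 higher and 5 lower (background 13.0% of all probes, 6.27% higher and 6.72% lower), and 15 had an unadjusted p under 0.05. COL27A1 was lower by 0.33 ± 0.15 in 6 of 6 lines (1.26-fold, adjusted p = 0.008), from -0.18 in 92-1 to -0.52 in C32TG. ITGB5 fell by 0.46 ± 0.33 in 6 of 6 lines (1.38-fold, adjusted p = 0.019), by 0.86 in HMV-II, 0.78 in HMV-I, 0.50 in MeWo, 0.39 in 92-1, 0.20 in Colo679 and 0.03 in C32TG. In HMV-II its unirradiated arrays had 1.07, 0.81 and 0.89 and its 3 h arrays 0.32, -0.16 and 0.03, with no overlap. In HMV-I the mean went from 0.95 ± 0.05 to 0.16 ± 0.10 (SD, n = 3 arrays), while the unirradiated X-ray set of that line had -0.40 ± 0.11 and its 3 h arrays -0.21 ± 0.23. The fall of ITGB5 in HMV-I is thus measured against 1 of its unirradiated sets, and the other set lay below the irradiated arrays.

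ITGB1BP2 fell by 0.30 ± 0.17 in 6 of 6 lines at 3 h (adjusted p = 0.020). LAMB3 fell by 0.25 ± 0.13 in 6 of 6 (adjusted p = 0.022), from -0.36 in 92-1 to -0.01 in C32TG, and a second LAMB3 probe gave -0.05 and did not pass. COL8A1, a collagen of vessel walls, was the only gene called higher, by 0.23 ± 0.14 in 6 of 6 lines (adjusted p = 0.033), with 0.45 in Colo679 and 0.03 in 92-1. COL16A1 passed with -0.41 ± 0.37 (5 of 6 lines lower, adjusted p = 0.041), subject to the same Colo679 array. The call of COL8A1 was lost when any 1 line other than 92-1 was left out, without replicate 1 or 3, with group medians, with quantile normalization over measured spots and with the median of all measured spots. Those of ITGB1BP2, ITGB5 and LAMB3 were each lost without HMV-I or HMV-II, and those of ITGB5 and LAMB3 also without 92-1. The calls of ITGB1BP2 and LAMB3 were also lost without Colo679, and that of ITGB1BP2 without replicate 1. The count went from 6 to 1 without HMV-I or without HMV-II and to 2 without Colo679. With arrays centred on the median of the kept probes it was 17, with 13 higher and 4 lower. That scaling also moved the share of rises among all called probes from 48.2% to 76.5%.

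**Figure D4:**
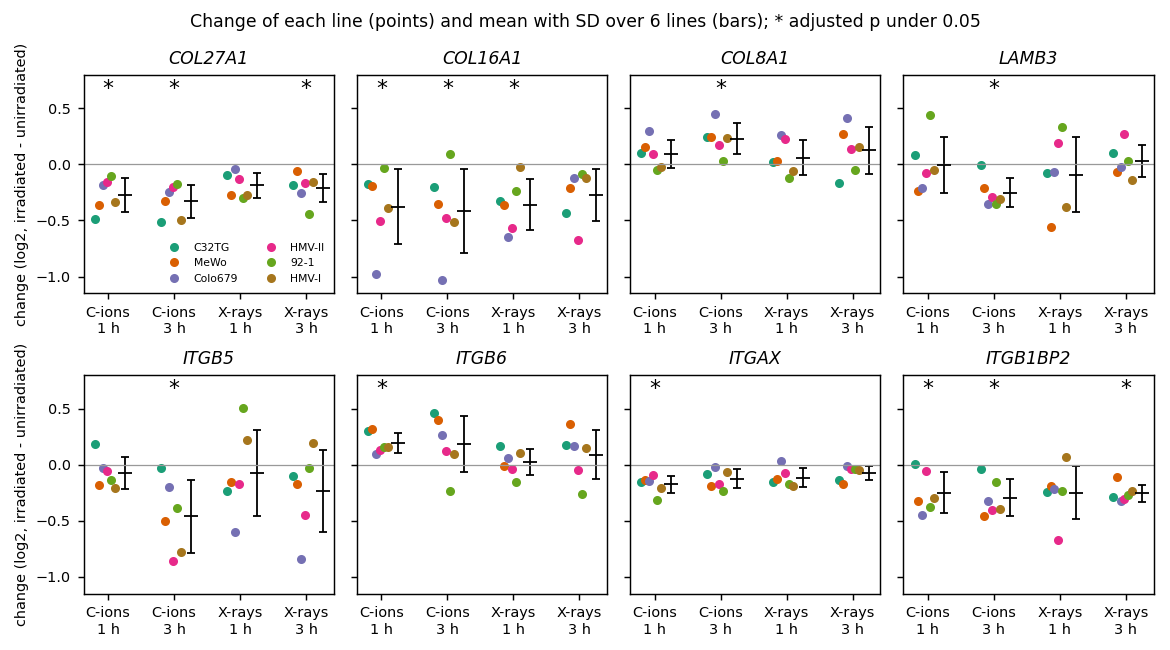
Change of the called genes in each of the 6 lines (points, vertical axis, log2 irradiated minus unirradiated) at 1 h and 3 h after each beam (horizontal axis), with the mean and SD over lines as bars, and a star where the adjusted p is under 0.05. COL27A1 is below 0 in every line and comparison, and COL16A1 in Colo679 is at -0.97 and -1.03 after carbon ions.

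After X-rays fewer genes passed. At 1 h it was 1 of 57 (background 1.11% of all probes, 0.340% higher and 0.767% lower, 9 with an unadjusted p under 0.05). COL16A1 fell by 0.36 ± 0.23 in 6 of 6 lines (adjusted p = 0.039), from -0.02 in HMV-I to -0.65 in Colo679, where the 1 h arrays were -1.14, -2.56 and -1.09. With group medians it changed by -0.29 (adjusted p = 0.040). The call was lost when any 1 line other than HMV-I or any 1 replicate number was left out, and with no filter on level. COL27A1 changed by -0.19 (adjusted p = 0.079) and COL7A1 by -0.18 (adjusted p = 0.128), and neither passed. At 3 h 2 of 57 passed (background 6.87%, 2.66% higher and 4.21% lower, 13 with an unadjusted p under 0.05). ITGB1BP2 fell by 0.26 ± 0.08 in 6 of 6 lines (adjusted p = 0.013), and COL27A1 by 0.21 ± 0.13 in 6 of 6 lines (adjusted p = 0.043), from -0.44 in 92-1 to -0.06 in MeWo. The latter call was lost when any 1 of the 6 lines or any 1 replicate number was left out and with group medians (adjusted p = 0.062). It was also lost with arrays centred on the median, with values as deposited and with no filter on level. Quantile normalization over measured spots and the median of all measured spots lost it as well. COL16A1 changed by -0.28 (adjusted p = 0.051). Centred on the median, 7 genes passed at 3 h, 6 of them higher. That scaling raised the share of rises among all called probes as well.

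COL27A1, ITGB1BP2 and COL16A1 were each called in 3 of the 4 comparisons with unirradiated cells, and the calls of COL27A1 came from 1 of its probes. Of the 3 tested probes of COL27A1, the brightest carried these values. The other tested probes gave -0.06 and -0.13 at 1 h and -0.07 and -0.07 at 3 h after carbon ions, neither passed, and neither followed the brightest probe over the unirradiated lines (r = -0.40 and -0.24). Which transcripts the probes read is not given in the sources used here. LAMB2 showed the reverse: its brightest probe did not pass, and a second one fell by 0.25 at 1 h after carbon ions (adjusted p = 0.026) and by 0.20 at 1 h after X-rays (adjusted p = 0.046).

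**Figure D5:**
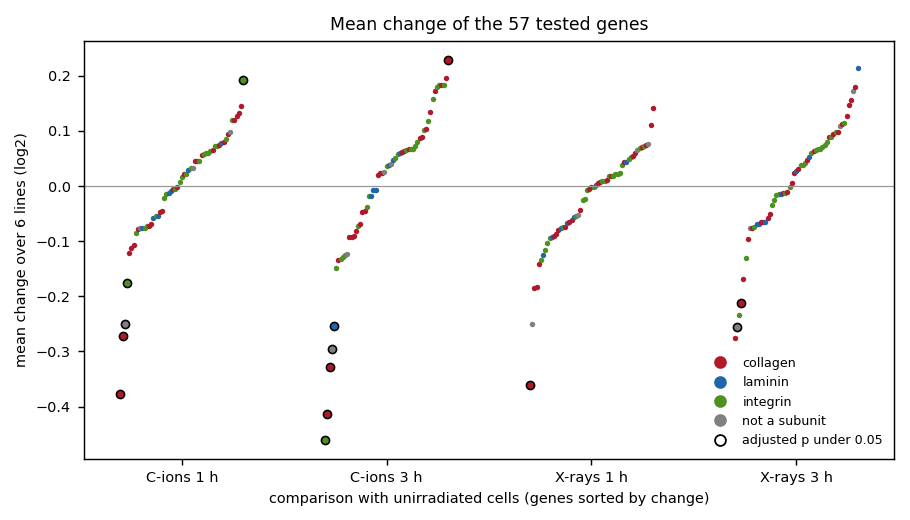
Mean change over 6 lines (vertical axis, log2) of the 57 tested genes, sorted within each of the 4 comparisons with unirradiated cells (horizontal axis), coloured by family, with a black edge where the adjusted p is under 0.05. Called genes lie mostly at the lower end, with ITGB6 (0.19) at 1 h and COL8A1 (0.23) at 3 h after carbon ions as the called rises, both lost under several other settings.

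Between the times, the change of ITGB5 was lower at 3 h than at 1 h by 0.27 ± 0.18 in 6 of 6 lines, both beams averaged (adjusted p = 0.030), and it was the only 1 of 57 genes called (background 4.28% of all probes, 2.30% higher and 1.98% lower, 5 with an unadjusted p under 0.05). The call was lost without 92-1, Colo679, HMV-I or HMV-II and without replicate 2. It was also lost with quantile normalization over measured spots and with the median of all measured spots. COL6A2 and COL8A1 changed by 0.14 (adjusted p = 0.144) and 0.10 (adjusted p = 0.189) more at 3 h and did not pass.

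No gene differed between the beams by limma at 1 h or 3 h, and no probe of the array did (background 0% at both times), with 3 genes and 1 gene at an unadjusted p under 0.05. The change of LAMB3 at 3 h was lower after carbon ions than after X-rays in 6 of 6 lines, by a mean of 0.28 ± 0.17 (adjusted p = 1.00). At 1 h ITGA7 (0.17 ± 0.12, adjusted p = 0.586), COL6A2 (0.27 ± 0.32, adjusted p = 0.608) and ITGB6 (0.17 ± 0.12, adjusted p = 0.636) had the smallest p. A call after 1 beam and not the other therefore does not show a difference between them here.

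The unirradiated sets of both beams could be compared in the same way, and 0 of 57 genes and 0% of all probes passed by limma, with 5 genes at an unadjusted p under 0.05. ITGAV was higher in the carbon-ion set in 6 of 6 lines, by 0.44 ± 0.36 (adjusted p = 0.423), with 0.96 in C32TG, 0.82 in 92-1 and 0.04 in Colo679. ITGB1 was higher there in 5 of 6 lines, by 0.30 ± 0.21 (adjusted p = 0.423). Neither passed, but within a line these gaps between unirradiated sets were as large as the changes after irradiation given above.

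No gene's change differed between the lines by limma (both beams averaged), with 0.0405% of all probes passing at 1 h and 0.212% at 3 h. LAMB3 had the smallest p at 1 h, with a range of 0.79 from 0.39 in 92-1 to -0.40 in MeWo (adjusted p = 0.206). ITGB6 had it at 3 h, with a range of 0.63 from 0.38 in MeWo to -0.25 in 92-1 (adjusted p = 0.296).

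Fits within single lines, whose p-values cover the spread of 3 arrays only, gave more calls. MeWo had 12 of 56 genes called at 3 h after carbon ions (background 21.4%), HMV-I 12 of 57 (13.6%), C32TG 8 (8.16%) and Colo679 7 (17.8%), while HMV-II had 4 of 56 (8.71%) and 92-1 3 of 56 (8.25%). At 3 h after X-rays Colo679 had 10 (19.0%), HMV-I 7 (13.8%), C32TG 4 (6.83%), MeWo 2 (3.23%), and HMV-II and 92-1 1 each (2.75% and 4.48%). COL27A1 fell in 5 of the 12 line and beam tests at 1 h and in 6 at 3 h and rose in none, with falls of 0.52 in C32TG, 0.50 in HMV-I, 0.33 in MeWo and 0.25 in Colo679 at 3 h after carbon ions. COL7A1 fell in C32TG by 0.36 and in HMV-I by 0.29 at 3 h after carbon ions and in HMV-I by 0.39 at 3 h after X-rays.

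ITGB3 rose in 4 of the 12 tests at 3 h and fell in none: by 0.38 and 0.48 in Colo679 after carbon ions and X-rays, by 0.35 in MeWo and by 0.20 in C32TG after carbon ions. These are the lines in which its unirradiated level was highest. In HMV-I, where that level was lowest, ITGB3 changed by 0.24 at 3 h after carbon ions without passing (limma, adjusted p = 0.117). That was more than the called rise of 0.20 in C32TG, and a link of ITGB3's rise to its unirradiated level was not tested. Across the 6 lines its change at 3 h after carbon ions was 0.18 (adjusted p = 0.096) and did not pass. ITGAV moved in opposite directions in single lines at 3 h after carbon ions, higher by 0.36 in C32TG and lower by 0.60 in HMV-I. ITGB5 fell in HMV-II, HMV-I and MeWo after carbon ions and, by 0.84, in Colo679 after X-rays. ITGB1 fell by 0.40 in MeWo at 3 h after carbon ions and rose by 0.35 in HMV-I at 3 h after X-rays. ITGA9, a receptor chain for tenascin, rose by 0.29 in 92-1 and 0.35 in C32TG after carbon ions and by 0.24 in Colo679 after X-rays.

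Other genes of the pathway were read from 4 lists. Of 28 tested matrix partners and non-integrin receptors, 2 were higher and 0 lower at 1 h after carbon ions (10.4% of all probes called), 1 and 2 at 3 h (13.0%), 0 and 0 at 1 h after X-rays (1.11%), and 1 and 1 at 3 h (6.87%). SDC4, a cell-surface proteoglycan of adhesions, was higher by 0.27 and 0.26 at 1 h and 3 h after carbon ions and by 0.22 at 3 h after X-rays. The collagen receptors DDR1 and DDR2 went opposite ways, DDR1 higher by 0.15 at 1 h after carbon ions and DDR2 lower by 0.37 at 3 h after carbon ions and 0.31 at 3 h after X-rays. Of 25 genes of collagen folding and crosslinking, the crosslinking enzyme LOXL2 was lower by 0.28 at 1 h and by 0.34 at 3 h after carbon ions, and P4HB, a subunit of prolyl hydroxylase, by 0.40 at 3 h. Of 21 matrix proteases and inhibitors, the inhibitor TIMP2 was higher by 0.14 and 0.21 at the same times, and the protease ADAM10 by 0.21 at 3 h. Of 35 genes of the integrin adhesion complex, PARVA was higher by 0.14 and 0.24, and TGFB1I1 by 0.20 at 3 h. No gene of these last 3 lists was called after X-rays. Between unirradiated lines, 21 of 28, 20 of 25, 15 of 21 and 24 of 35 genes of the 4 lists were called, beside 59.5% of all probes.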

How the data were processed

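RNA of 6 lines was hybridised to 108 single-colour CodeLink arrays with biotin label, per the labels' protocols. The authors deposited 1 table of spot intensity on a linear scale; the sources used here name no software, scaling or meaning of missing spots. Groups follow the labels' line, beam, dose and time. Intensity was taken to log2 and quantile-normalized, with missing spots ranked lowest and then left missing. Of 54359 probes, 44606 had at most 10% missing values; 32060 of these also had a mean log2 above the 40th percentile (-0.41) and a value in every group. A gene is its tested probe with the highest mean.

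limma 3.58.1 in R 4.3.3 was used, with the variance trended on level and Benjamini-Hochberg adjustment over all tested probes at 0.05. Changes used 1 value per line (mean irradiated minus mean unirradiated arrays of that beam), lines used 12 line and set means, and fits within a line used its 18 arrays. The fits were tested on simulated data. For unirradiated cells, named genes were those of widest range or highest level per family, all type IV and VI chains and listed receptors; for changes, all called genes or the 3 of smallest p.

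Members, lists and rules were chosen with earlier results of these data known. The handling of missing spots and the trend on level were set after counts of calls had been seen, and other settings are given in the closing section. The annotation had 23472 probes with 1 symbol and 905 with several, which were not named. Promoter sequences and starts are from RefSeq (GRCh38.p14).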

Additional observations from a re-analysis of the deposited data

Results flagged for a closer look

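In 61 groups of 6 lines, 1 line was tested for standing apart from the others by Dixon's ratio (gap to the nearest line over the whole range). Chance alone picks out about 1 in 20 such groups, and 3 lines were found, all in unirradiated cells. COL4A6 in HMV-I had 4.0, where the other lines lay between -0.95 and -0.13 (ratio 0.835), but this gene passed the filter on level only through HMV-I, so the value is a description. ITGA2 in 92-1 had 6.21, against 4.61 to 5.09 (ratio 0.701). COL4A4 in 92-1 had 5.34, against 4.93 to 5.07 (ratio 0.651), in a gene whose lines did not pass the F test. No cause of these values was tested.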

How the results depend on the processing

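No change or difference of a gene named in a comparison reversed its direction under any setting run on its brightest probe. Other probes of a gene were left out of that check. One of them, a COL27A1 probe, changed by 0.04 at 1 h after X-rays, where the brightest COL27A1 probe was lower. Ranges between lines have no direction, so they could not reverse. Of all these values, 1212 stayed on their side of the threshold or, for ranges in a single unirradiated set, within the spread of the arrays. Another 106 lost a call and 25 gained one, and 27 ranges in a single unirradiated set moved by more than that spread. The calls of COL27A1 at 1 h and 3 h after carbon ions were lost in no setting. That of ITGB1BP2 at 3 h after X-rays was lost in no setting that tested it, but the stricter filter on level left ITGB1BP2 out. The count of called genes moved as follows, and where no value bears on it the cause was not tested. The stricter filter on level tested fewer genes and gave 2 genes at 1 h and 2 at 3 h after carbon ions, 0 at 1 h and 1 at 3 h after X-rays, and 0 between times. No filter gave 0 at 1 h and 1 at 3 h after X-rays. Median centring gave 17 at 3 h after carbon ions, 7 at 3 h after X-rays and 2 between times; rises were then 76.5% of all called probes at 3 h after carbon ions (48.2% as reported, 38.0% with values as deposited), 66.9% at 1 h (44.2%) and 70.4% at 3 h after X-rays (38.7%, and 24.5% as deposited). At 3 h after X-rays, 1 gene was called with values as deposited, with quantile normalization over measured spots, with the median of all measured spots and with group medians. Between times, 0 were called with quantile normalization over measured spots and with the median of all measured spots. Group medians gave 3 at 1 h after carbon ions, and counting every member probe gave 2 at 1 h after X-rays.

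The deviations of same-numbered arrays of a line and beam had correlations of -0.35 to 0.38. Their averages per line and beam were -0.047 to 0.095, against -0.047 to 0.026 for arrays of different numbers. Arrays of different beams were not compared in this way, and whether the replicate numbers pair arrays was not tested. Fits over all arrays, which count arrays as samples, gave 12 and 26 genes at 1 h and 3 h after carbon ions without the replicate block and 12 and 26 with it, 6 and 13 after X-rays without it and 6 and 15 with it, 10 and 10 between times, 30 and 31 between the unirradiated sets, and 1 and 2 for differences between lines at 3 h. The share of all probes called is not given for these fits or for the other settings of this section. Their counts therefore do not set the members apart from other probes.

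Leaving out 1 replicate number gave 1 to 2 genes at 1 h and 3 to 7 at 3 h after carbon ions, 0 to 0 at 1 h and 1 to 1 at 3 h after X-rays, 0 to 1 between times, 44 to 46 for the unirradiated lines and 15 to 41 over the fits within lines (102 as reported). Leaving out 1 line gave 1 to 4 and 1 to 7 after carbon ions, 0 to 1 and 1 to 1 after X-rays, 0 to 1 between times and 41 to 47 for the unirradiated lines. Levels near or below 0 are limited by an unknown background.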

Other observations

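Some matrix genes with a single high line lay just outside the limit of 10% missing values. They are given as levels with no test. COL5A1, the main chain of type V collagen (14.8% missing), had a median of 3.33 in HMV-I (3.14 to 3.47) and no array above 0.16 in the other lines. LAMC3, a laminin gamma chain (13.0%), had 1.85 in 92-1 (1.57 to 1.92), and the highest array of the other lines was -0.72. COL4A5, which lies head to head with COL4A6 (starts 380 bases apart), had 14.8% missing values, with 2.37 in HMV-I, 1.77 in 92-1, 1.57 in C32TG, 0.26 in MeWo, -1.72 in HMV-II and 3 measured arrays in Colo679 at -2.57 to -1.52. HMV-I was thus highest for both genes of that pair, but 92-1 and C32TG were high for COL4A5 and not for COL4A6. COL3A1 (11.1%) was the member candidate nearest outside the limit, and COL4A6's second probe and a second ITGB3 probe (5.56% each) were the nearest inside, followed by COL4A2 and COL5A2 (4.63% each).

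A COL1A2 probe outside the limit (13.9% missing) had a median of 2.24 in C32TG (2.04 to 2.33) and no array above -0.06 in the other lines, while the tested COL1A2 probe was lowest in C32TG (-0.35) and did not pass between lines. The level of COL1A2 in C32TG therefore depends on the probe.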
